A study of Homo sapiens with 12 samples.

Results

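The transcripts of 8 genes at the centre of the apoptotic machinery were examined in epirubicin-sensitive and epirubicin-resistant breast cancer cells: the initiator caspases CASP2, CASP8 and CASP9, the executioner caspase CASP6, the caspase substrate PARP1, and the inhibitor of apoptosis proteins (IAPs) XIAP, BIRC2 and BIRC3. These 8 genes were picked by name from the 58735 genes of the deposited expression tables, and all 8 had enough reads to be tested in both comparisons. RNA-seq had been performed on 12 libraries, 3 in each of 4 groups. The parental line, SK-BR-3, was established from a human breast cancer and carries an amplified ERBB2 gene, and SK/EPI is the line derived from it by long exposure to stepwise rising epirubicin, an anthracycline that damages DNA. The other 2 groups were SK/EPI cells transfected for 48 h either with a control siRNA (SK/EPI-siControl, labelled siNC) or with an siRNA against ABCG2, the gene of the drug pump BCRP (SK/EPI-siBCRP). The comparisons thus ask which of these transcripts differ between resistant and parental cells, and which differ after BCRP is silenced in resistant cells, a treatment whose effect on apoptosis was the question of the study. All groups go back to 1 cell line, and the resistant groups to 1 derived line, so that differences between lines that arose by chance during culture and differences tied to resistance cannot be told apart.

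Caspases are proteases that are made as inactive precursors. Initiator caspases are activated on assembled platforms: CASP8 at death receptors, CASP9 on the apoptosome that APAF1 forms with cytochrome c released from mitochondria, and CASP2 on the PIDDosome. They cleave executioner caspases such as CASP6, which in turn cut cellular proteins such as PARP1, the enzyme that senses DNA breaks and attaches ADP-ribose chains near them. XIAP binds and blocks CASP9 and executioner caspases, whereas BIRC2 (cIAP1) and BIRC3 (cIAP2) are ubiquitin ligases that act at death receptor complexes and keep the NF-kappaB-inducing kinase MAP3K14 at a low level. The activity of these proteins is set largely by cleavage and binding, which transcript levels do not show.

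Expression is given as FPKM, read counts scaled by exon length and by a total for each library, so that levels of different genes can be set beside each other. This total was not the number of reads on genes. Those reads made up at least 99.75% of the total in SK-BR-3 libraries and exceeded it in replicate 2. They made up 92.75 to 95.45% in SK/EPI, 89.51 to 90.07% with siControl and 90.42 to 90.70% with siBCRP. A library held between 15830381 and 20545811 reads on genes (median 17759002). ABCG2 measured 0.0220 to 0.0750 FPKM in SK-BR-3 and 32.7 to 35.9 FPKM in SK/EPI libraries, and 32.5 to 33.7 FPKM with the control siRNA against 2.84 to 3.47 FPKM with siBCRP. Of 7 luminal epithelial markers, 6 exceeded 1 FPKM in every group, while CDH1 was listed at 0 in SK-BR-3 and stayed at or below 0.121 FPKM elsewhere. Their levels differed between the lines: from SK-BR-3 to SK/EPI the mean of ERBB2 went from 659 to 133 FPKM, of KRT19 from 1651 to 509 FPKM, of GRB7 from 111.6 to 45.5 FPKM and of KRT18 from 358 to 601 FPKM. Among fibroblast, leukocyte and endothelial markers, PTPRC reached at most 0.0669 FPKM, PECAM1 0.229 FPKM and COL1A1 1.60 FPKM. CD14 and CDH5 were the exceptions: CD14 averaged 0.513 FPKM in SK-BR-3 and 27.4 FPKM in SK/EPI, and CDH5 averaged 6.77 and 27.5 FPKM in these groups and 13.8 FPKM with siControl and 22.2 FPKM with siBCRP. The mitochondrial share of reads was 4.18 to 4.23% in SK-BR-3 and 5.10 to 5.38% in SK/EPI. The part of these shifts in the results below was not tested, except that all 6 calls of the 8 genes between SK/EPI and SK-BR-3 were kept when mitochondrial genes were left out. The labels do not say that the 3 libraries of a group came from separate cultures, so p-values measure the spread between these libraries, which may be technical.

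PARP1 was the most abundant of the 8 transcripts in each group, at 62.5 ± 1.3 FPKM (SD, n = 3, as for all values below) in SK-BR-3 and between 23.4 and 27.0 FPKM on average in the other 3 groups. In SK-BR-3, BIRC2 at 10.6 ± 0.31 FPKM and CASP6 at 9.65 ± 0.94 FPKM came next, and their ranges overlapped. XIAP, CASP8 and CASP2 followed at 5.84, 5.27 and 5.15 FPKM, again with overlapping ranges. CASP9 at 1.34 ± 0.16 FPKM and BIRC3 at 0.787 ± 0.179 FPKM were lowest. In SK/EPI cells the order changed below PARP1: BIRC2, CASP8 and XIAP lay within overlapping ranges at 6.98, 6.68 and 6.65 FPKM, CASP6 had dropped to 3.20 FPKM, below CASP2 at 5.45 FPKM, and BIRC3 overlapped with CASP9. With the control siRNA, XIAP, BIRC2 and CASP8 were close to each other at 8.44, 8.30 and 8.15 FPKM, and with siBCRP BIRC2 at 8.87 FPKM lay above XIAP and CASP8, which overlapped. CASP9 was the lowest of the 8 in SK/EPI, siControl and siBCRP cells.

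**Figure D1:**
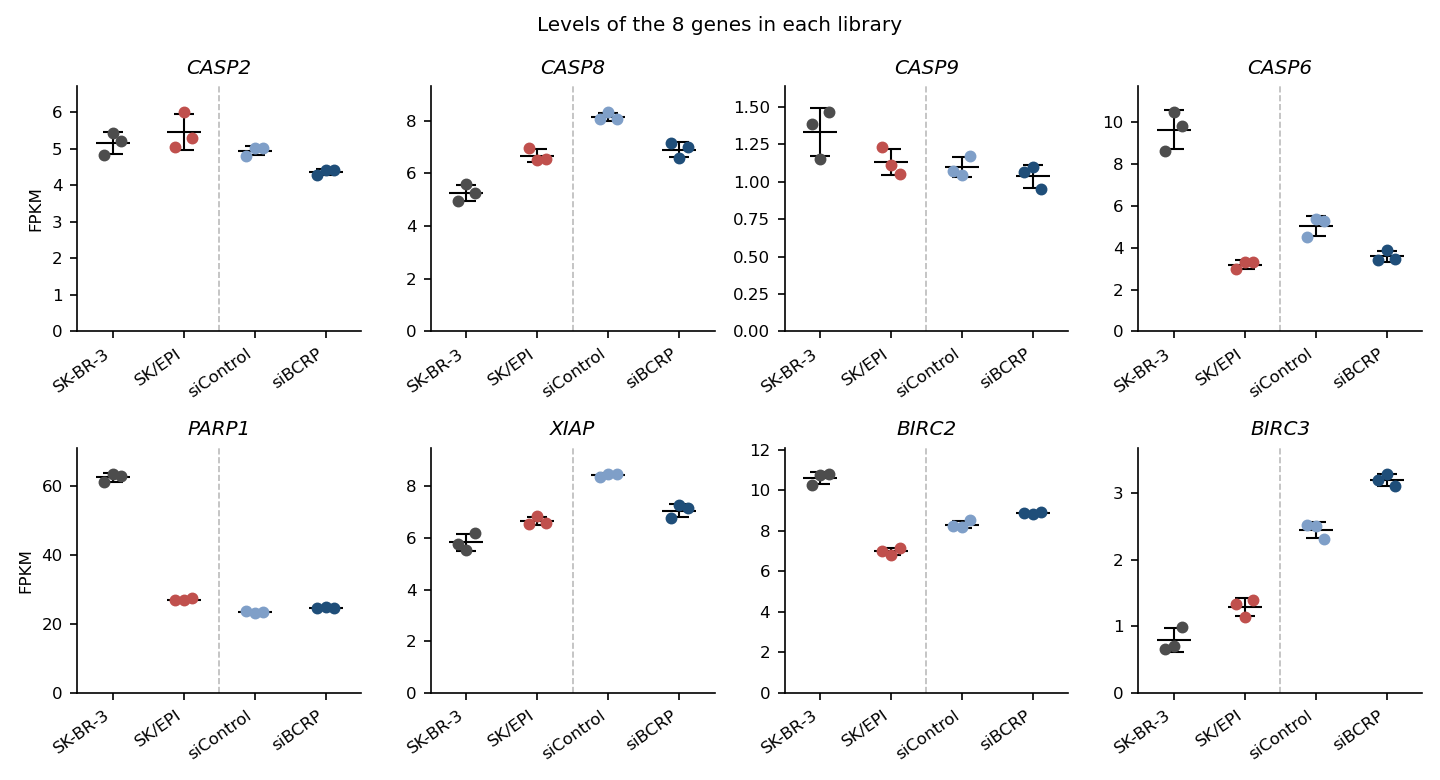
FPKM of the 8 genes (y axis, from 0) in the 3 libraries of each group (points), with the group mean and SD (bars). The dashed line separates the 2 tables. PARP1 and CASP6 fall from SK-BR-3 to SK/EPI without overlap, and BIRC3 is higher in SK/EPI than in SK-BR-3 and higher with siBCRP than with siControl.

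Between SK/EPI and SK-BR-3, 3 of the 8 transcripts were higher (CASP8, XIAP and BIRC3), 3 were lower (CASP6, PARP1 and BIRC2) and 2 were not called (CASP2 and CASP9), where a gene was called when its limma p-value, adjusted over all tested genes, was under 0.05. Fold changes are differences of mean log2(FPKM + 1). The 2 lines differed widely: 74.9% of 15823 tested genes were called, 37.9% higher and 37% lower. The count of 6 of 8 therefore lies near the share of all genes. Their median log2 fold change was -0.03, beside 0.01 over all tested genes. In bulk RNA, a change in all cells and a change in the share of cells that express a gene cannot be told apart.

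CASP6, an executioner caspase that cleaves nuclear lamins, fell most. It measured 8.63, 10.5 and 9.84 FPKM in SK-BR-3 and 2.97, 3.30 and 3.32 FPKM in SK/EPI libraries. Every resistant library lay far below every parental one, and the mean was 3.02-fold lower. The log2 fold change was -1.34 with an SE of 0.074 and an adjusted p of 1.1e-06. The gene lies on chromosome 4 (109688622 to 109703583, minus strand, GRCh38) and was covered by 113 to 121 reads in SK/EPI libraries. Of its exonic bases, 5.40% overlap MCUB on the other strand, and the strand setting of the counting is not given in the sources used here. MCUB itself fell from 23.5 to 2.16 FPKM in the same comparison (log2 fold change -2.96), and its part in the CASP6 value was not tested.

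PARP1, on chromosome 1 (226360691 to 226408079, minus strand), measured 61.0, 63.5 and 63.0 FPKM in SK-BR-3 and 27.0, 26.8 and 27.4 FPKM in SK/EPI. The 2 groups were widely separated and each was narrow. The mean fell by 56.7%, with a log2 fold change of -1.18, an SE of 0.029 and an adjusted p of 1.3e-08. A processed copy, PARP1P1, shares 2.33% of the 50-base windows of the PARP1 transcript, so that few reads could have been split between them. Of 16 other genes, a list of PARP family members and the glycohydrolase PARG, 9 were higher, 2 were lower, 4 were not called and 1 was not tested. Over all tested genes, 37.9% were higher and 37% were lower. The median log2 fold change of the list was 0.21. Genes that rose included PARP14, from 0.706 to 7.47 FPKM, PARP9, from 0.717 to 6.68 FPKM, and PARP10, from 1.59 to 6.67 FPKM, which are mono-ADP-ribosyl transferases or, for PARP9, a macrodomain protein known from interferon responses. PARP8 fell from 3.48 to 0.0547 FPKM. PARP2, the closest relative of PARP1 in DNA repair, differed little (10.5 and 9.41 FPKM, adjusted p = 0.031), and its call was lost without SK-BR-3 replicate 2 or 3 or SK/EPI replicate 2 or 3.

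Of the initiators, CASP8 (chromosome 2, 201233443 to 201287711, plus strand), the protease of death receptor complexes, was modestly higher in SK/EPI cells. It measured 4.97, 5.58 and 5.26 FPKM in SK-BR-3 and 6.98, 6.52 and 6.55 FPKM in SK/EPI, and the ranges did not overlap. The log2 fold change was 0.29 with an SE of 0.053 and an adjusted p of 0.0013. CASP2 (chromosome 7, 143288215 to 143307696, plus strand), which is activated on the PIDDosome, showed no difference larger than the spread between libraries: it measured 4.82, 5.43 and 5.21 FPKM in SK-BR-3 and 5.06, 5.996 and 5.29 FPKM in SK/EPI. Its log2 fold change was 0.07 with a 95% interval of -0.09 to 0.23 and an adjusted p of 0.41, although it was called with limma voom on the reads (0.16, adjusted p = 0.027). CASP9 (chromosome 1, 15490832 to 15526534, minus strand), the caspase of the apoptosome, measured 1.39, 1.156 and 1.46 FPKM in SK-BR-3 and 1.23, 1.11 and 1.05 FPKM in SK/EPI. These ranges overlapped, and the log2 fold change of -0.13 had a 95% interval of -0.29 to 0.03 (adjusted p = 0.12). Without SK-BR-3 replicate 2, the lowest of its group, CASP9 was called lower (-0.19, adjusted p = 0.037).

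The IAPs did not move together. BIRC2 measured 10.2, 10.8 and 10.8 FPKM in SK-BR-3 and 7.01, 6.79 and 7.15 FPKM in SK/EPI, a clear separation. It fell by 34.1%, with a log2 fold change of -0.54, an SE of 0.041 and an adjusted p of 7.3e-06. XIAP (chromosome X, 123859724 to 123913979, plus strand) was slightly higher, at 5.77, 5.54 and 6.20 FPKM in SK-BR-3 and 6.56, 6.84 and 6.56 FPKM in SK/EPI. Its ranges were adjacent, the log2 fold change was 0.16 with an SE of 0.050 (adjusted p = 0.018), and the call was lost without SK-BR-3 replicate 2 (adjusted p = 0.060) or without SK/EPI replicate 2 (adjusted p = 0.065). BIRC3, a textbook NF-kappaB target gene, measured 0.662, 0.707 and 0.992 FPKM in SK-BR-3 and 1.34, 1.14 and 1.39 FPKM in SK/EPI. The groups did not overlap, and the mean was 1.64-fold higher with a log2 fold change of 0.36, an SE of 0.083 and an adjusted p of 0.0045. On the log2(FPKM + 1) scale the change of a gene at this level is understated: with a pseudocount of 0.1 it was 0.66. Among the other IAPs, BIRC5 (survivin), which is known to be high in dividing cells, fell from 30.3 to 23.6 FPKM (log2 fold change -0.35). BIRC7 rose from 0.0953 FPKM, with 2 to 4 reads per library, to 0.796 FPKM. BIRC6 measured 8.75 and 9.90 FPKM, a call that was lost without replicate 1 of either group. NAIP and BIRC8 had too few reads to be tested.

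BIRC2 and BIRC3 lie next to each other on chromosome 11 in the same orientation, BIRC3 at 102317450 to 102339403 and BIRC2 at 102347211 to 102378670, with 29.8 kb between their starts. Only 0.274% of the 50-base windows of BIRC2 and 0.214% of those of BIRC3 are shared between them, so that their reads can be told apart. In SK/EPI cells the neighbours moved in opposite directions. The BIRC3 promoter is printed here because its gene rose in both comparisons together with NF-kappaB genes, described further on. It is the RefSeq sequence at chr11:102317234-102317533 (GRCh38.p14, plus strand), from 250 bases before to 50 bases after the start, with matches to the NF-kappaB consensus in capitals.
BIRC3 promoter: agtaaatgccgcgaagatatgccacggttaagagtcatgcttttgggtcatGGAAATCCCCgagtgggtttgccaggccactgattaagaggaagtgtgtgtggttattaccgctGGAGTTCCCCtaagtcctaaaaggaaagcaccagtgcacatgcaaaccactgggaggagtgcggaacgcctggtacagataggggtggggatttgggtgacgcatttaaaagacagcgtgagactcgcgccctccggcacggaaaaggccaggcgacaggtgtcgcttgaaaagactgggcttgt
The matches begin 199 and 135 bases before the start. Of 35116 RefSeq promoters of this length, 11.3% hold at least 1 match on either strand and 2.04% hold 2 or more. All 8 genes had RefSeq promoters: PARP1 held 1 match, CASP2 held 1 in the second of its 2 promoters, and those of BIRC2, XIAP, CASP6, CASP8 and CASP9 held none. A match is a description of the letters and not a measured binding site.

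**Figure D2:**
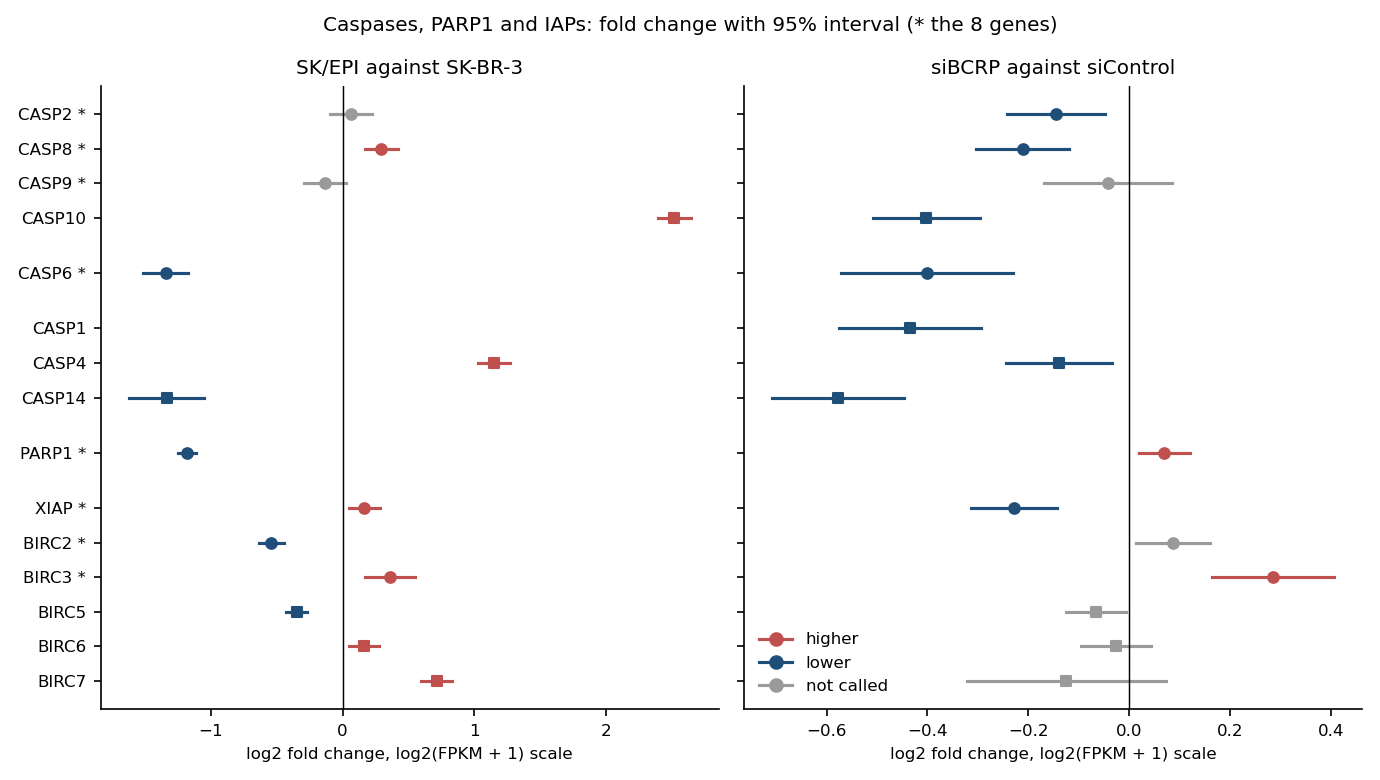
Log2 fold changes with 95% intervals of the tested caspases, PARP1 and the tested IAPs in the 2 comparisons (x axis, log2(FPKM + 1) scale, different ranges). Round points and starred names mark the 8 genes, and squares mark their relatives. In SK/EPI against SK-BR-3 the genes go both ways, whereas after silencing of BCRP 7 of the 8 caspases plotted are lower.

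The partners of these genes also went both ways in SK/EPI cells. On the apoptosome side, APAF1 fell from 1.89 to 0.398 FPKM (log2 fold change -1.04, adjusted p = 2.5e-06) and CYCS, cytochrome c, fell from 124.3 to 85.2 FPKM (log2 fold change -0.54, adjusted p = 6.5e-06). Of the 5 genes of this list, XAF1, a XIAP-binding protein, rose from at most 1 read per SK-BR-3 library to 2.00 FPKM, at least 77.5-fold higher with 3 reads per library as the floor, with 38.3% of its exonic bases overlapping a gene on the other strand. DIABLO, which displaces IAPs from caspases, was called higher, but 97.5% of its 50-base windows are shared with a read-through transcript, so that its value is uncertain. HTRA2 was not called. Both PIDDosome genes fell, PIDD1 from 9.40 to 6.19 FPKM and CRADD from 1.95 to 1.06 FPKM, while CASP2 itself was not called. The caspase-activated nuclease DFFB and its inhibitor DFFA fell as well, with log2 fold changes of -0.48 and -0.27.

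Around CASP8, 5 of 11 tested genes of death receptors, their ligands and adaptors were higher, 3 were lower and 3 were not called. Over all tested genes, 37.9% were higher and 37% were lower, so these calls were about as frequent as elsewhere. The ligand TNFSF10 (TRAIL) fell from 31.3 to 0.295 FPKM (log2 fold change -4.64, adjusted p = 2.3e-10), whereas its receptor TNFRSF10B rose from 5.32 to 9.65 FPKM. FAS rose from 0.0612 FPKM, with 3 to 6 reads per library, to 0.814 FPKM. TRAF2, which recruits BIRC2 and BIRC3 to receptor complexes, fell from 15.3 to 8.93 FPKM (log2 fold change -0.72). CFLAR, the catalytically inactive relative of CASP8 that limits its activation, rose from 2.29 to 3.75 FPKM (log2 fold change 0.53, adjusted p = 0.00011). CASP10, the closest relative of CASP8, rose from 0.0325 FPKM, with 3 to 6 reads per library, to 4.90 FPKM. CASP8, CASP10 and CFLAR lie side by side on chromosome 2, with 117 kb between the starts of CFLAR and CASP8, and all 3 were higher. Of the 13 tested genes that start within 500 kb of CASP8, 6 were higher, 3 were lower and 4 were not called, beside 74.9% called over all genes. The region as a whole did not move one way. Around CASP6, 6 of 7 tested neighbours were lower and none was higher, with a median log2 fold change of -0.33, beside 37% lower calls over all genes. Around PARP1, 5 of 9 were lower and 1 was higher, with a median of -0.17.

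**Figure D3:**
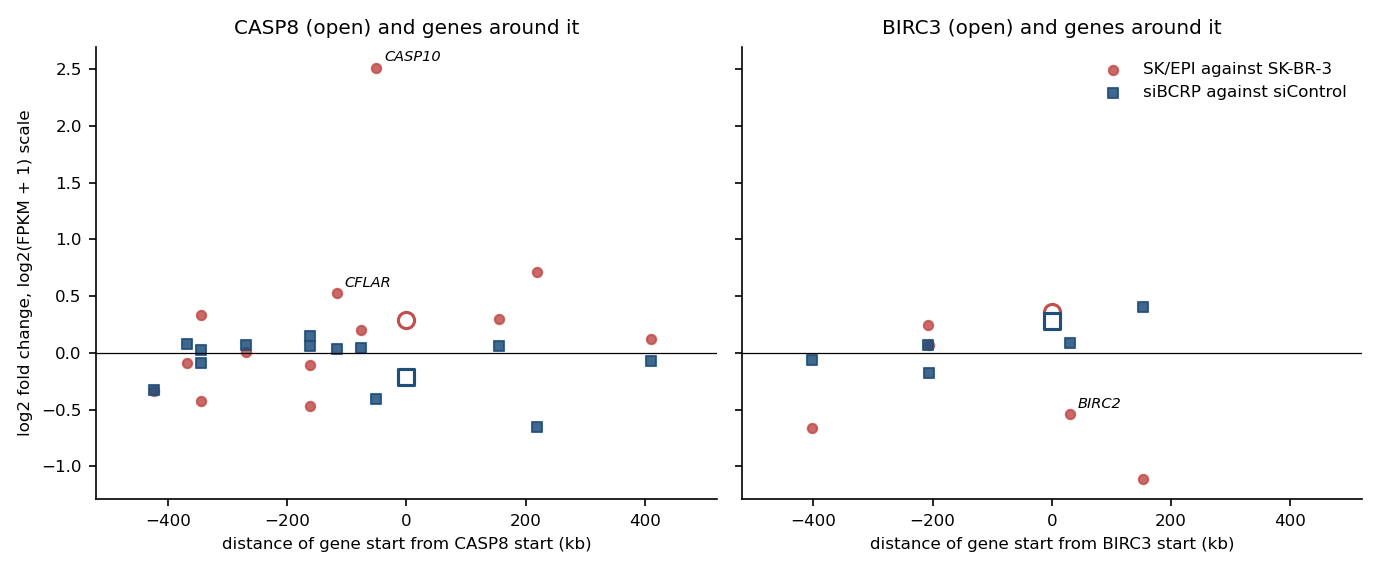
Log2 fold change (y axis, log2(FPKM + 1) scale) of CASP8 and BIRC3 (open symbols) and of the tested genes that start within 500 kb of them (filled symbols) against the distance between gene starts in kb (x axis). CASP10 and CFLAR beside CASP8 are higher in SK/EPI than in SK-BR-3, and BIRC2 beside BIRC3 is lower.

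Of 4 non-canonical NF-kappaB genes 3 rose, beside 37.9% higher calls over all genes: NFKB2 went from 16.2 to 33.9 FPKM (log2 fold change 1.02, adjusted p = 9.1e-08), RELB from 6.05 to 9.22 FPKM (0.54) and MAP3K14 from 1.83 to 2.97 FPKM (0.49), and TRAF3 was not called (10.6 and 10.4 FPKM). Of the exonic bases of MAP3K14, 12.3% overlap a gene on the other strand, whose part in its value was not tested. The list had a median log2 fold change of 0.51, beside 0.01 over all tested genes. The composition of caspase transcripts was shifted. Of the summed FPKM of 9 caspases, CASP6 made up 34.9% in SK-BR-3 and 11.2% in SK/EPI, and CASP10 0.117% and 17.2%, while the sums themselves overlapped, at 25.4 to 30.0 and 28.1 to 29.1 FPKM. Including CASP4, an inflammatory caspase that rose from 2.20 to 6.09 FPKM, and CASP14, a keratinocyte caspase that fell from 3.90 to 0.928 FPKM, 3 of these caspases were higher, 2 were lower, 2 were not called, and CASP1 and CASP5 were not tested.

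**Figure D4:**
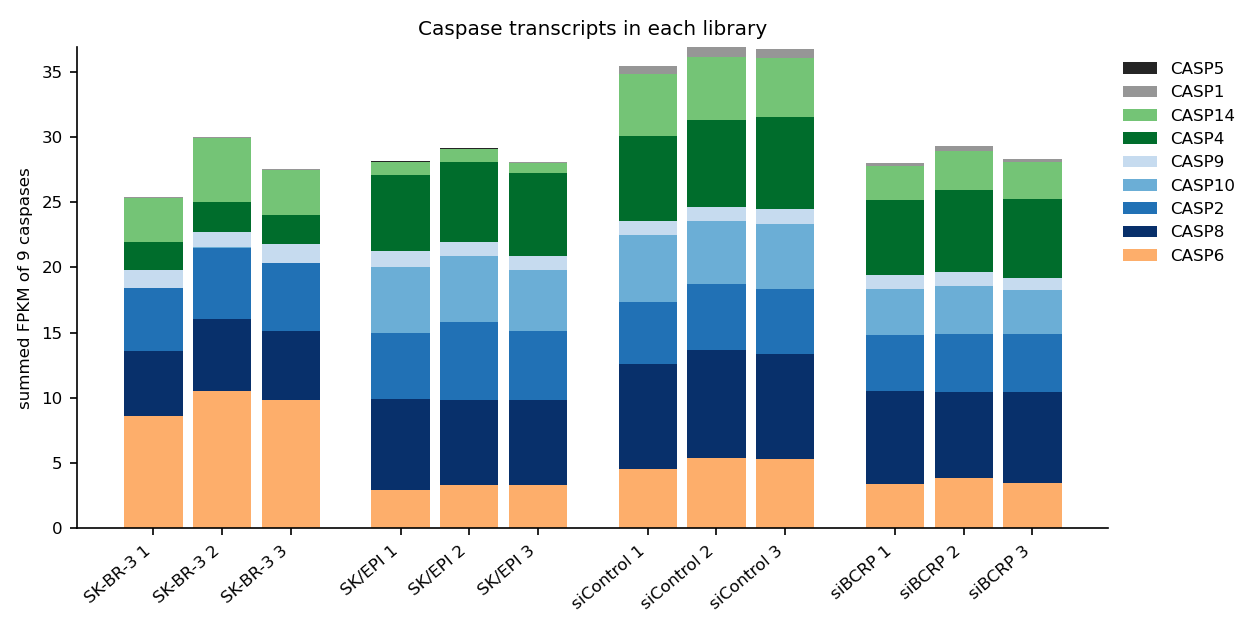
Summed FPKM of 9 caspases (y axis, from 0) in each of the 12 libraries, stacked by gene. CASP6 shrinks and CASP10 and CASP4 grow from SK-BR-3 to SK/EPI, and the siBCRP libraries, at 28.0 to 29.3 FPKM in all, lie below the siControl libraries at 35.4 to 36.9 FPKM. The SK/EPI libraries, normalized separately, lie at 28.1 to 29.1 FPKM.

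After silencing of BCRP, 4 of the 8 transcripts were lower than with the control siRNA (CASP2, CASP6, CASP8 and XIAP), 2 were higher (PARP1 and BIRC3) and 2 were not called (CASP9 and BIRC2). Of 16298 tested genes 38.1% were called, 19.4% higher and 18.7% lower. All changes of the 8 genes were smaller than 1 on the log2 scale, with a median of -0.09 beside 0.00 over all genes. The siRNA is given because these libraries were made with a single sequence, siBCRP #1, as the title of the study's own result file has it. Its antisense strand is shown with the seed, bases 2 to 8, in capitals, and it pairs along its whole length with bases 1368 to 1392 of the ABCG2 transcript.
siBCRP antisense strand: aUAACCAGcugauucaaaguauccc
A seed can pair with other transcripts. The complement of the seed occurs in the longest annotated coding transcript of 13.9% of 16288 tested genes, among them 1 of the 8 genes, CASP2. Its site, at bases 1443 to 1467 in the coding part of the transcript, is shown with the matching bases in capitals.
CASP2: tgcacgtggccgacatgCTGGTTAa
Among the listed pathway genes named for this comparison, CYCS, HTRA2, TNFRSF10B, TRAF1 and CFLAR held 1 match each and TRAF3 held 2. Whether the siRNA acts at any of these sites was not tested. A second siRNA was not analysed here, so an effect of BCRP and an effect of this siRNA sequence cannot be told apart.

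The fall of CASP6 was the largest among the 8 genes. It measured 4.51, 5.38 and 5.29 FPKM with siControl and 3.41, 3.89 and 3.46 FPKM with siBCRP. The groups did not overlap, the mean fell by 29.1%, and the log2 fold change was -0.40 with an SE of 0.073 and an adjusted p of 0.0044. CASP8 measured 8.07, 8.32 and 8.06 FPKM with siControl and 7.14, 6.59 and 6.997 FPKM with siBCRP, a drop with no overlap. Its log2 fold change was -0.21 with an SE of 0.039 and an adjusted p of 0.0049. CASP2 measured 4.79, 5.02 and 5.01 FPKM with siControl and 4.28, 4.43 and 4.41 FPKM with siBCRP. The ranges were separate but the step was small, with a log2 fold change of -0.15, an SE of 0.041 and an adjusted p of 0.029, and among the fits that left out 1 library it was called only without siControl replicate 1. Leaving out any of the other 5 libraries gave adjusted p-values of 0.060 to 0.087. CASP9 was not called, with 1.07, 1.05 and 1.17 FPKM against 1.06, 1.10 and 0.952 FPKM, which overlapped, and a log2 fold change of -0.04 with a 95% interval of -0.17 to 0.08 (adjusted p = 0.58).

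Further caspases were lower too. CASP10 fell from 4.96 to 3.51 FPKM (log2 fold change -0.40, adjusted p = 0.00047). CASP14 fell from 4.67 to 2.80 FPKM and CASP4 from 6.75 to 6.03 FPKM. CASP1, which processes interleukin-1 beta, fell from 0.703 to 0.260 FPKM, with 15 to 29 reads per siBCRP library. Of 8 tested caspases, 7 were lower and none was higher, with a median log2 fold change of -0.31, beside 18.7% lower calls over all genes, and CASP5 was not tested. The count was 5 or 6 when any 1 library was left out, since the calls of CASP2 and CASP4 were lost in these fits, CASP2 in all but that without siControl replicate 1 and CASP4 in all but that without siBCRP replicate 2. The summed FPKM of 9 caspases was 35.4 to 36.9 with siControl and 28.0 to 29.3 with siBCRP. In untreated SK/EPI libraries, which were normalized separately, it was 28.1 to 29.1. The summed FPKM of XIAP, BIRC2 and BIRC3 was 19.1 to 19.3 with siControl and 18.9 to 19.4 with siBCRP, ranges that overlapped.

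PARP1 changed very little. It measured 23.7, 23.2 and 23.4 FPKM with siControl and 24.6, 24.8 and 24.5 FPKM with siBCRP. Although the ranges did not overlap, the mean differed by 5.12%, the log2 fold change was 0.07 with an SE of 0.021 and an adjusted p of 0.038, and the call was lost when any 1 of the 6 libraries was left out (adjusted p of 0.058 to 0.12), with 2 other scalings and with voom. XIAP measured 8.36, 8.48 and 8.46 FPKM with siControl and 6.77, 7.26 and 7.15 FPKM with siBCRP. It was lower in every silenced library, with a log2 fold change of -0.23, an SE of 0.036 and an adjusted p of 0.0025. BIRC2 measured 8.23, 8.17 and 8.51 FPKM against 8.90, 8.82 and 8.90 FPKM, with ranges that did not overlap but a log2 fold change of 0.09 (95% interval 0.01 to 0.16) that was not called (adjusted p = 0.067). BIRC3 was higher in every silenced library, at 2.52, 2.50 and 2.31 FPKM with siControl and 3.19, 3.29 and 3.10 FPKM with siBCRP. The mean was 1.31-fold higher, with a log2 fold change of 0.28, an SE of 0.052 and an adjusted p of 0.0045. Of the other IAPs, none of the 3 that were tested was called.

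Side by side, BIRC3 was higher and CASP6 was lower in both comparisons, while CASP8 and XIAP were higher in SK/EPI than in SK-BR-3 and lower after silencing of BCRP. The 2 comparisons share no libraries. The siControl cells were not at the level of untreated SK/EPI cells for all genes. In the order SK/EPI, siControl and siBCRP, BIRC3 averaged 1.29, 2.45 and 3.19 FPKM and CASP6 3.20, 5.06 and 3.59 FPKM. In the same order, CASP8 averaged 6.68, 8.15 and 6.91 FPKM and XIAP 6.65, 8.44 and 7.06 FPKM. The siBCRP mean lay nearer to SK/EPI than the siControl mean for CASP6, CASP8, XIAP and PARP1. It lay farther away for CASP2, CASP9, BIRC2 and BIRC3. SK/EPI and the siRNA groups come from tables that were normalized separately and were not tested against each other.

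After silencing of BCRP, the apoptosome and death receptor lists had calls in both directions. CYCS fell from 77.8 to 52.8 FPKM (log2 fold change -0.55, adjusted p = 1.3e-05) and APAF1 from 0.694 to 0.433 FPKM, whereas HTRA2, a mitochondrial protease that cleaves IAPs, rose from 5.67 to 7.37 FPKM (log2 fold change 0.32, adjusted p = 0.0030), with 36.9% of its exonic bases shared with a gene on the other strand. Of 11 tested genes of death receptors, their ligands and adaptors, 3 were higher, 2 were lower and 6 were not called. Over all genes, 19.4% were called higher and 18.7% lower. TNFRSF10B rose from 15.5 to 19.3 FPKM (log2 fold change 0.30, adjusted p = 0.00065) and TRAF1, an NF-kappaB target that binds BIRC2 and BIRC3, from 0.216 to 0.504 FPKM. TNFRSF10A was called higher at 5.30 and 6.75 FPKM, but not without siBCRP replicate 2 or 3, and 16.6% of its exonic bases overlap genes on the other strand. The adaptor TRADD fell from 4.96 to 3.85 FPKM (log2 fold change -0.30). CFLAR (3.61 and 3.73 FPKM) and TNFSF10 (0.675 and 0.766 FPKM) were not called. Both nuclease genes were called higher, DFFA at 5.71 and 6.38 FPKM and DFFB at 2.26 and 2.97 FPKM, but neither call held without siControl replicate 1 or without siBCRP replicate 2 or 3. CRADD was lower and PIDD1 was not called.

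Of the 4 non-canonical NF-kappaB genes 3 were higher, beside 19.4% higher calls over all genes. MAP3K14 rose from 3.91 to 6.30 FPKM (log2 fold change 0.57, adjusted p = 0.00025), RELB from 10.1 to 13.7 FPKM (0.40) and NFKB2 from 36.9 to 46.1 FPKM (0.31), and TRAF3 was not called (9.56 and 10.2 FPKM). The overlap of 12.3% of MAP3K14 exonic bases with a gene on the other strand holds here too. The median of this list was 0.36, the highest of the 8 lists around the members in this comparison. Thus the 3 genes that were called in this list were higher in both comparisons, as was BIRC3. Among the listed PARP genes and PARG, 2 were higher (PARP3, and PARG, which removes ADP-ribose chains), 2 were lower (TIPARP and PARP4) and 10 were not called. Over all genes, 19.4% were higher and 18.7% were lower. TIPARP, a mono-ADP-ribosyl transferase known as a target of the aryl hydrocarbon receptor, fell from 6.91 to 4.33 FPKM (log2 fold change -0.57, adjusted p = 0.00023), and the call of PARP4 was lost without siControl replicate 2 or siBCRP replicate 1 or 2.

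**Figure D5:**
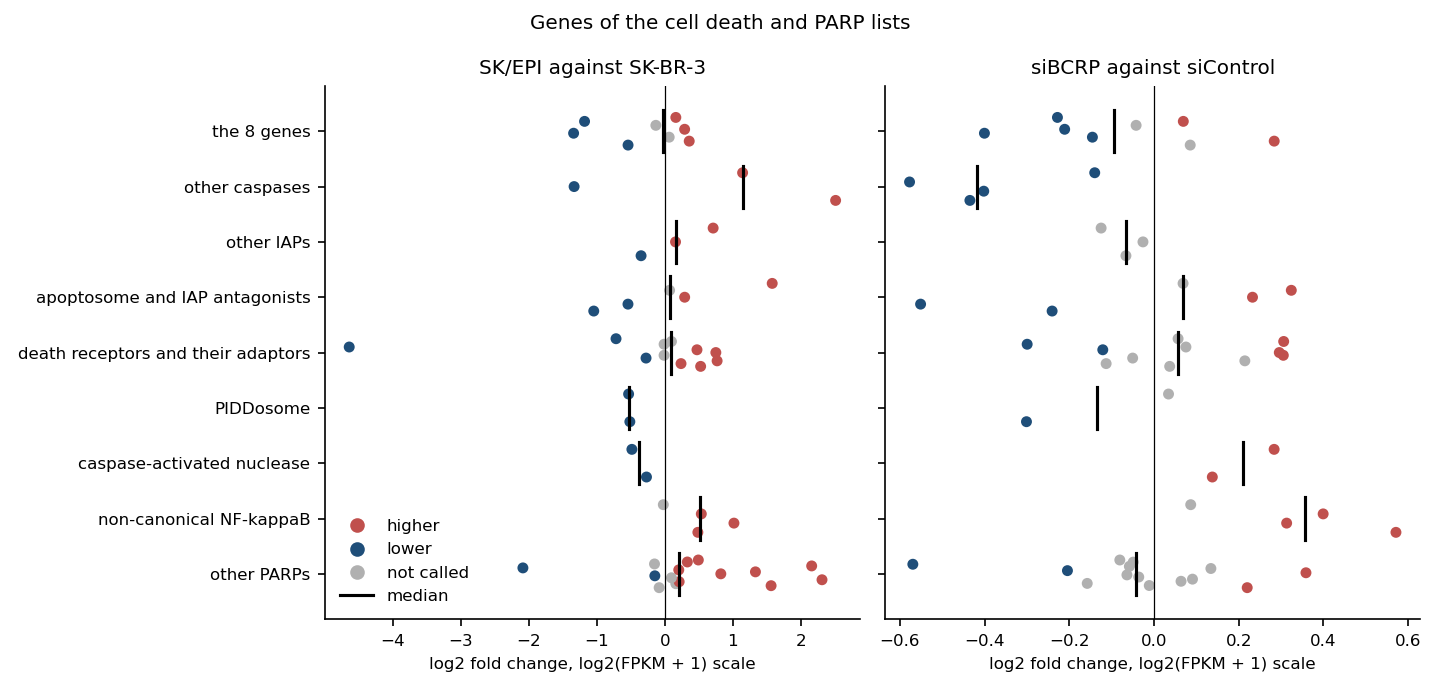
Log2 fold changes (x axis, log2(FPKM + 1) scale, different ranges) of the tested genes of each list (points) with the list median (bar), coloured by whether they were called higher, lower or neither. Non-canonical NF-kappaB genes lie at or above 0 in siBCRP against siControl, and the other caspases all lie below 0 there.

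The genes with the most similar pattern to each of the 8 were taken as those with the smallest root mean square difference of log2(FPKM + 1), centred in each table, over the 12 libraries and among 11487 genes. Similar fold changes follow from this choice and are not a separate result. For PARP1 the genes were CUL4A (0.018) and AHCYL1 (0.023), with log2 fold changes of -1.21 and -1.18 in SK/EPI. For CASP6 they were CAPZA1 (0.067) and MKI67 (0.073), the gene of the proliferation antigen Ki-67, which fell by 1.32 on the log2 scale in SK/EPI and by 0.29 after silencing. For BIRC2 they were ZNF664 (0.024) and PICALM (0.026), and for BIRC3 NUP155 (0.052) and UBL7 (0.058). For XIAP they were AVL9 (0.028) and MOB1A (0.028), for CASP8 AC006333.2 (0.036) and RCOR1 (0.037), for CASP2 AKAP13 (0.040) and HUS1 (0.041), and for CASP9 MOCOS (0.034) and RBM15 (0.040). CASP2 and CASP9 changed so little that their own spread over the libraries, 0.079 and 0.074, was close to these differences.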

How the data were processed

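RNA-seq of 12 poly-A selected libraries was used, grouped by the submitters' labels, which number 3 libraries per group. The authors deposited FPKM values for 58735 genes in 2 tables, SK-BR-3 with SK/EPI and SK/EPI-siControl with SK/EPI-siBCRP. The submitters' processing notes name HISAT2 2.0.5, featureCounts 1.5.0-p3 and DESeq2 1.16.1 without their settings. The tables do not state the unit. Values above 0, multiplied by merged exon lengths of GENCODE 29 (GRCh38), were whole multiples of the value of 1 read within 0.05, which gave the reads per gene. The genes with the most reads were left out of this check. A gene was tested when 3 or more libraries reached 10 reads, scaled to a library of median size, and the table held 15 or more. For each table, limma 3.58.1 (lmFit, eBayes with a trend; R 4.3.3) was fitted to log2(FPKM + 1) with the group alone, with Benjamini-Hochberg adjustment over all tested genes and a threshold of 0.05, two-sided. DESeq2 was not run. The recovered reads served for the filter and for some of the alternatives, voom among them. The steps were tested on simulated data.

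Lists were described by counts and medians. Named were the 8 genes, ABCG2, at most 4 called genes per list and comparison with the largest change, BIRC5, APAF1, CYCS, DIABLO and CFLAR, and the 2 most similar genes; other named genes were chosen after their values were seen, and some genes are not reported here. The members and the lists were chosen with earlier results of these data known. Promoters were read from RefSeq (GRCh38.p14) and transcripts from GENCODE 29 in Python 3.11.15. Alternatives were other filters, scalings and pseudocounts, limma voom on the reads, a replicate block, stricter thresholds and leaving out each library.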

Additional observations from a re-analysis of the deposited data

How the results depend on the processing

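Between SK/EPI and SK-BR-3 the same 6 of the 8 genes were called in the same direction with no filter, with at least 10 reads in every library, with 3 other scalings, with a pseudocount of 0.1 and with the replicate block. When a log2 fold change of 1 or more in size was also required, 0 were higher and 2 were lower (CASP6 and PARP1). Leaving out 1 library at a time gave 2 to 3 higher and 3 to 4 lower among the 8 genes, and 3 higher and 2 to 3 lower among 9 caspases.

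After silencing of BCRP, 1 of the 8 genes (BIRC3) was higher with scaling by the reads on genes, without the mitochondrial chromosome, with limma voom, at an adjusted p-value under 0.01 and in each fit that left out 1 library (1 to 1 higher, 3 to 4 lower). When a log2 fold change of 1 or more in size was also required, 0 were higher and 0 were lower among the 8 genes, and 0 caspases were lower. Leaving out 1 library gave 5 to 6 lower caspases. Same-numbered libraries did not deviate together (mean correlation -0.030 for SK/EPI with SK-BR-3 and 0.028 for siBCRP with siControl), so the numbers were not taken as pairs. With the replicate block, 1 was higher and 3 were lower among the 8 genes, the calls of PARP1 (adjusted p = 0.088) and CASP2 (adjusted p = 0.057) were lost, and 5 caspases were lower. The cause of these changes was not tested.

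Genes that were not called changed sign in some fits. Between SK/EPI and SK-BR-3, TNFRSF10A (-0.0092 as reported) was 0.065 with scaling by the reads, 0.080 without the mitochondrial chromosome and 0.073 with voom, and TRADD was 0.061, 0.075 and 0.088. Leaving out 1 library gave -0.048 to 0.056 for TNFRSF10A and -0.058 to 0.082 for TRADD. PARG was 0.0097 without the mitochondrial chromosome. After silencing, leaving out 1 library gave -0.028 to 0.089 for PIDD1 and -0.029 to 0.015 for PARP10. Filters and scalings set the split of all genes, which was 6002 higher and 5852 lower in the first table. It became 6697 and 5263 with scaling by the reads on genes, where the median log2 fold change was 0.06 against 0.01 as reported. It became 6832 and 5149 without the mitochondrial chromosome, and 4807 and 5207 with at least 10 reads in every library. Depth limits how small a change could be seen in CASP9, with 97 to 147 reads per library, CASP6, with 113 to 121 in SK/EPI, and BIRC3, with 79 to 142 in SK-BR-3.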
